A study of Mus musculus with 4 samples.

Results

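Fibronectin, 2 fibulins, fibrillin-1, EMILIN-1 and 3 latent TGF-β binding proteins were followed through a time course of TGF-β in cultured kidney mesenchymal cells. The 8 genes, Fn1, Fbln2, Fbln5, Fbn1, Emilin1, Ltbp1, Ltbp2 and Ltbp3, were taken by name from the 17391 genes of the count table, in which all 8 are present. The rule names genes and sets no limit on their measured values, but the genes were chosen with earlier results of these data known.

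Expression was measured by Drop-seq, which captures single cells in droplets with barcoded beads and counts the 3′ ends of their transcripts. The cells were primary cultures labelled as Gli1+ kidney cells, from male mice aged 12 weeks. After 2 h in serum-free medium, 1 culture was harvested without TGF-β and is labelled 0 h, and the others received 1 ng/ml TGF-β for 6, 12 or 24 h. No strain, reporter allele or number of animals was given in the sources used here. Gli1 itself is not in the count table, so it could not be analysed. With 1 library at each time there was no replicate and no test, and all intervals cover counting error only. The effect of TGF-β and that of the longer time without serum cannot be told apart, because no untreated culture was sampled later than 0 h.

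The libraries held 192, 658, 1120 and 1328 barcodes at 0, 6, 12 and 24 h, with 106826, 778793, 5687966 and 6166324 counts and a median of 489.5, 313.5, 3815.5 and 3379 counts per barcode. The library labelled 0 h goes against its label. All 10 proximal tubule markers were detected in it, at a summed 16728 CPM (counts scaled to the total of each library), against 0.879 to 3.85 CPM in the treated libraries, while Slc34a1, a phosphate transporter that defines the proximal tubule, had 0 counts in all 3 of those. In the same library the 7 measured mesenchymal markers summed to 46.8 CPM, with Col1a1 and Col3a1 at 0, against 1255, 3383 and 4213 CPM with 6, 12 and 24 h of TGF-β. Its levels are therefore given side by side with the others, with no direction drawn from them. Malat1, a nuclear RNA, took 32.2% of the counts at 0 h and 0.947% to 1.24% in the treated libraries. In the treated libraries the markers of loop and distal tubule, endothelium, macrophages and lymphocytes summed to at most 5.14 CPM each. Only 3 of 6 listed macrophage markers and 1 of 6 lymphocyte markers (Ms4a1) were in the count table, so these sums cannot show that such cells are absent. Smooth muscle and pericyte markers summed to 5.14, 36.7 and 51.7 CPM at 6, 12 and 24 h, and podocyte markers to 43.7, 111 and 175 CPM with Wt1 at 0, and their part in the levels below was not tested. No barcode sequence was shared between libraries.

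Fibronectin is a large secreted glycoprotein that cells assemble into fibrils through integrins, and its gene is a widely used readout of TGF-β signalling in fibroblasts. Fibrillin-1 forms the microfibrils on which elastic fibres are built, with fibulins and EMILIN-1 joining them to elastin and to cells. Latent TGF-β binding proteins are relatives of fibrillin. LTBP-1 and LTBP-3 are joined to the TGF-β propeptide before secretion and hold the latent cytokine in the matrix. LTBP-1 is laid down on fibronectin first and on fibrillin microfibrils later. LTBP-2 sits on microfibrils and does not carry latent TGF-β.

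Upstream sequences of Ltbp1 and Ltbp3 are shown because the make-up of the Ltbp counts shifted over time. The Ltbp2 window is not shown, since it lies within annotated exons, counted over any gene on either strand. They are the 250 bases directly before a transcription start, 5′ to 3′ on the strand of the gene, from RefSeq on GRCm38.p6, the assembly also called mm10. Capitals mark the motifs found. Motifs sought on both strands were AP-1 (TGANTCA), the cyclic AMP response element (TGACGTCA), the SMAD box (CAGACA, which reads TGTCTG on the other strand), the GC box (GGGCGG), the TEAD motif (CATTCC) and TATAAA, and none of these letter strings can hold another. Of the members, 7 of 8 had a window in the RefSeq table, and Fn1 did not.
Ltbp1 upstream start, chr17:75005279-75005528, plus strand: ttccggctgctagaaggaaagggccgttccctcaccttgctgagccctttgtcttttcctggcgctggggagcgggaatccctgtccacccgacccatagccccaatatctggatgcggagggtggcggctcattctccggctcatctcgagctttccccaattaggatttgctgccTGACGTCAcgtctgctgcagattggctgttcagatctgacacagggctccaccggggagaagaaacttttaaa
Ltbp1 downstream start, chr17:75178531-75178780, plus strand: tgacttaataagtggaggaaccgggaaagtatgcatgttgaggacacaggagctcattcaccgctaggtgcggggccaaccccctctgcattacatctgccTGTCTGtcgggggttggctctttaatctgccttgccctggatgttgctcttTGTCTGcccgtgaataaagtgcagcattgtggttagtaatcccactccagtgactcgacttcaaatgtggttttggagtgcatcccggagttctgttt
Ltbp3, chr19:5740650-5740899, plus strand: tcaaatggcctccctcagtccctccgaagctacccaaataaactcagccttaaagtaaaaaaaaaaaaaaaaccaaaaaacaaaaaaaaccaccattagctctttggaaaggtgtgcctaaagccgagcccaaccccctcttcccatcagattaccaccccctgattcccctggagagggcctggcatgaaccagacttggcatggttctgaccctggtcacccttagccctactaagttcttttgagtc

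The upstream window of Ltbp1 held 1 cyclic AMP response element, whose first base lies 73 bases before the start. That motif is in 1.55% of all 32817 windows of the same length. The window of the downstream Ltbp1 start held 2 SMAD boxes, both on the opposite strand, with their first bases 149 and 98 bases before the start. A SMAD box is in 17.1% of all windows. The Ltbp3 window held none of the 6 motifs. Over the 9 windows of the 7 genes, no AP-1 motif, TEAD motif or TATAAA was found, and these are in 6.75%, 12.6% and 12.4% of all windows. GC boxes, found in 32.7% of all windows, were in windows of Fbln2, Fbln5, Fbn1 and Ltbp2. A SMAD box was also in windows of Emilin1 and Fbln5. The windows of Emilin1, Fbln2, Fbn1 and Ltbp2 lie wholly within annotated exons of any gene on either strand. Motifs found or missing there therefore describe sequence annotated as transcribed. For Ltbp2 most of the window, 84876492 to 84876741, lies outside the gene, which is annotated to 84876532. Its exon bases there belong to another gene. Counts of 3′ ends do not tell which of the 2 starts of Ltbp1 a transcript came from, and a match describes letters, not binding.

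Together the 8 genes took 0.262% of all counts at 6 h, 0.672% at 12 h and 0.652% at 24 h, and 6 counts in the library labelled 0 h. Most of that sum came from Fn1 and Fbln2. At 12 h against 6 h, 6 of the 8 genes reached 100 CPM in either library, and 5 of these were at least 2-fold higher on the log2 (CPM + 10) scale (Fn1, Fbn1, Ltbp1, Ltbp2 and Ltbp3), where 4.79% of the 2256 genes at that level were higher and 4.34% lower. Fbln5 and Emilin1 were under that level. Between 12 and 24 h, none of the 6 was 2-fold apart, where 1.35% of 2146 genes were higher and 0.699% lower. At 24 h against 6 h, 4 of 6 were higher (Fn1, Fbn1, Ltbp2 and Ltbp3), where 4.99% of 2166 genes were higher and 4.06% lower. Fbn1, Ltbp2 and Ltbp3 were above 100 CPM only in the later library of each comparison with 6 h, so they could be counted only as higher.

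Other scalings moved the balance of higher and lower over all genes. Of all genes 2-fold apart at 12 h against 6 h, 52.4% were higher with total counts, 37.3% with TMM and 31.2% with DESeq2 size factors. With either, 4 of 6 members rather than 5 were 2-fold higher, without Ltbp1. Of all genes at 100 CPM, 3.45% were higher and 5.82% lower with TMM, and 2.91% and 6.41% with DESeq2 size factors. For 24 h against 12 h the shares of genes 2-fold apart that were higher were 65.9%, 85.4% and 85.1%. No member was 2-fold apart under any of the scalings. Of all genes at 100 CPM, 1.95% were higher and 0.333% lower with TMM, and 1.92% and 0.337% with DESeq2 size factors. The median of all genes moved from 0.15 to 0.05 and 0.00 (log2) at 12 h against 6 h, and from -0.11 to 0.00 with either at 24 h against 12 h.

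**Figure D1:**
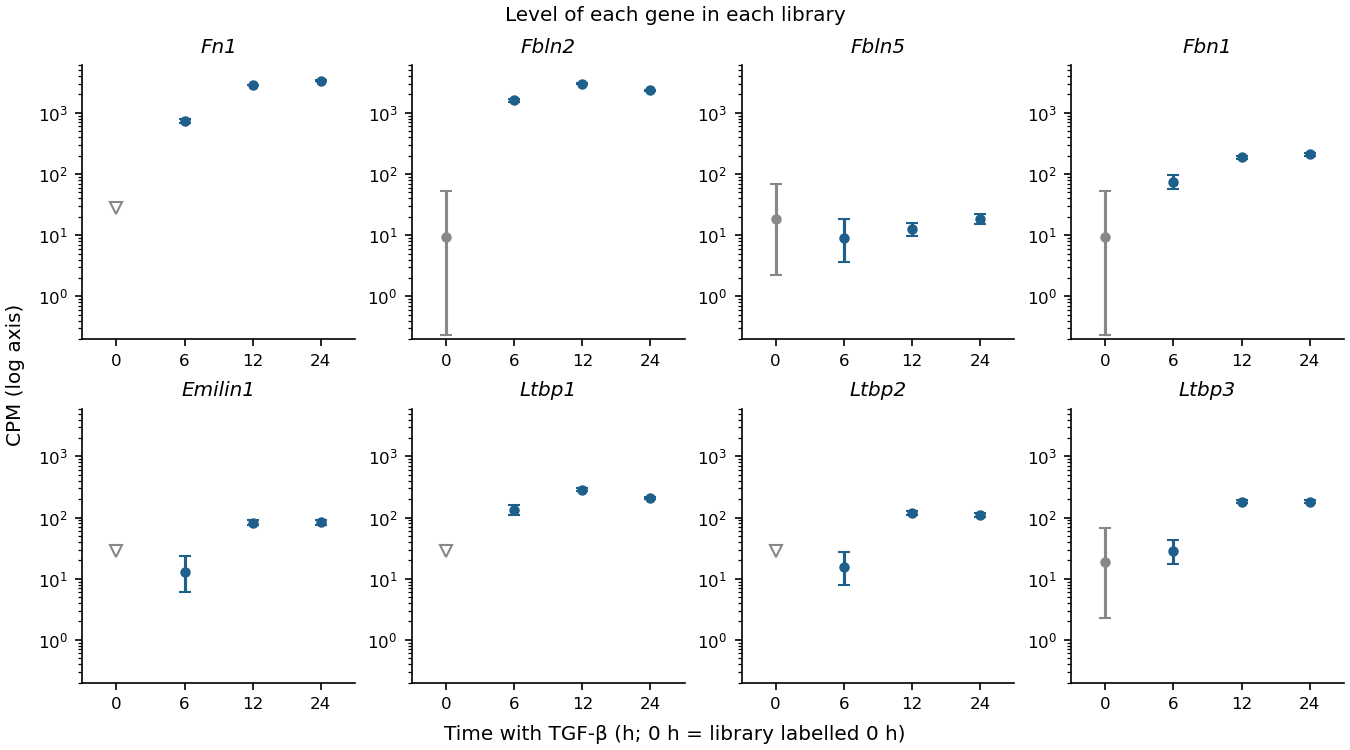
Level of each of the 8 genes in each library, in CPM (log axis) against hours with TGF-β. Points are library totals, with exact Poisson 95% intervals for counting error only. Grey marks the library labelled 0 h, and an open triangle marks the level that a count of 0 allows there (28.1 CPM). The largest gap between treated libraries lies between 6 and 12 h for Fn1, Fbln2, Fbn1, Emilin1, Ltbp1, Ltbp2 and Ltbp3.

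Among the treated libraries, the fibronectin gene was higher at 12 h than at 6 h, and higher at 24 h than at 12 h. Fn1 (chromosome 1, 71585520 to 71653200, minus strand) had 0 counts in the library labelled 0 h, which allows up to 28.1 CPM. The treated libraries gave 745 CPM (95% interval 685 to 808, from 580 counts), 2862 CPM (2818 to 2906) and 3372 CPM (3326 to 3418) in time order. The 3 intervals did not overlap. The ratio was 3.84 (3.54 to 4.18) at 12 h against 6 h and 1.18 (1.15 to 1.20) at 24 h against 12 h. Over the 10 alternative scalings and barcode choices for the ratios, the second lay between 1.07 and 1.29. In barcodes under 500 counts alone, which hold few of the counts, the order was the other way, with overlapping intervals of 2080.2 to 2965 CPM around 2493 at 12 h, and 1891 to 2477 CPM around 2169 at 24 h. Fn1 was among the most counted genes, at place 194 of 12473 genes with a count at 6 h, 18 of 15022 at 12 h and 19 of 15663 at 24 h. After each barcode was thinned to 500 counts, Fn1 was found in 18.7% of 134 barcodes at 6 h, 73.7% of 962 at 12 h and 79.0% of 1003 at 24 h, and in 0 of 91 in the library labelled 0 h, where 3 barcodes would be 3.3%. This limits barcodes with a count, not cells that express the gene. Without thinning, the shares were 13.8%, 91.4% and 85.5% of all barcodes, and 0 of 192 at 0 h.

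Fbln2, the gene of fibulin-2, a matrix glycoprotein that binds fibronectin and fibrillin, followed another course. Fbln2 (chromosome 6, 91212455 to 91272540, plus strand) had 1 count at 0 h. In time order the treated libraries gave 1599.9 CPM (interval 1512 to 1691), 2994 CPM (2949 to 3039) and 2336 CPM (2298 to 2374), so the level was highest at 12 h. The ratio was 1.87 (1.77 to 1.98) at 12 h against 6 h and 0.780 (0.763 to 0.798) at 24 h against 12 h, and the latter lay below 1 under all 10 settings, between 0.738 and 0.854. After thinning to 500 counts, Fbln2 was found in 36.6%, 72.2% and 66.3% of barcodes at 6, 12 and 24 h.

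The shift from Fbln2 to Fn1 did not depend on scaling, because it can be read within each library. The ratio of Fn1 to Fbln2 counts was 0.465 (0.421 to 0.514) at 6 h, 0.956 (0.936 to 0.977) at 12 h and 1.44 (1.41 to 1.47) at 24 h. It compares a ratio over time and not the abundance of the 2 transcripts. The same order was found in barcodes of 5000 or more counts, at 0.472, 0.927 and 1.43, and in those under 500 counts, at 0.418 (0.278 to 0.616), 0.901 (0.704 to 1.15) and 1.28 (1.04 to 1.58). Barcode by barcode, in barcodes of 5000 or more counts, the median share of Fn1 in the sum of both was 31.4% in 33 barcodes at 6 h (range 0 to 62.5%), 47.2% in 450 at 12 h (14.3% to 89.8%) and 58.3% in 483 at 24 h (22.9% to 89.7%). The ranges overlapped widely. The middle 50% of barcodes ran from 25% to 40.9% at 6 h, from 38.5% to 55.6% at 12 h and from 50.2% to 67.7% at 24 h.

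**Figure D2:**
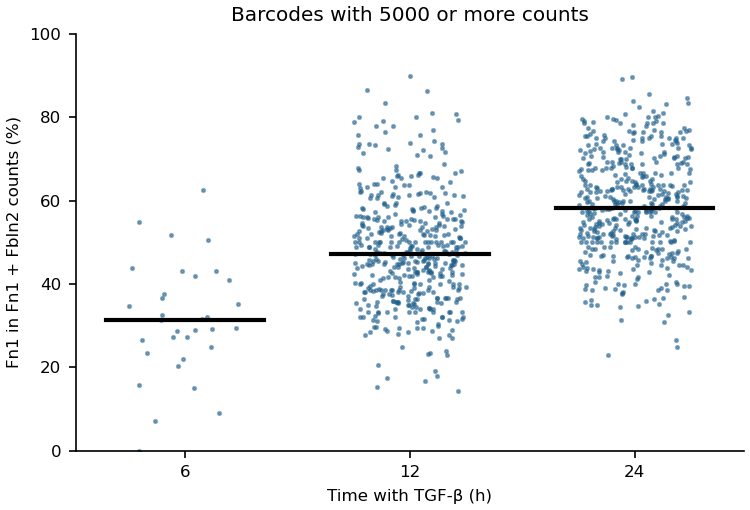
Share of Fn1 in the summed Fn1 and Fbln2 counts of each barcode with 5000 or more counts, in percent, by hours with TGF-β. Each point is 1 barcode (33, 450 and 483 barcodes), spread sideways at random, and the bar is the median, at 31.4%, 47.2% and 58.3%.

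Fbln5, the gene of fibulin-5, which guides elastin onto microfibrils, was scarce. Fbln5 (chromosome 12, 101746565 to 101819055, minus strand) had 2 counts at 0 h, 7 at 6 h, 71 at 12 h and 114 at 24 h, which is 8.99 CPM (3.61 to 18.5), 12.5 CPM (9.75 to 15.7) and 18.5 CPM (15.2 to 22.2) in the treated libraries. The intervals at 6 and 12 h overlapped, and the ratio of 1.39 between them had an interval of 0.640 to 3.58. The ratio was 1.48 (1.09 to 2.02) at 24 h against 12 h. With each barcode given equal weight it was 0.908, so its direction depended on that choice. All 7 counts at 6 h came from barcodes with 5000 or more counts.

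Fbn1, the gene of fibrillin-1, was lowest at 6 h among the treated libraries. Fbn1 (chromosome 2, 125300594 to 125507993, minus strand) had 1 count at 0 h, and then 74.5 CPM (interval 56.6 to 96.3), 188 CPM (177 to 199.7) and 210.0 CPM (199 to 222) in the treated libraries. The ratio was 2.53 (1.94 to 3.35) at 12 h against 6 h and 1.12 (1.03 to 1.21) at 24 h against 12 h. The intervals of the 12 and 24 h levels overlapped slightly, while the interval of their ratio lay above 1.

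Emilin1, whose product lies between elastin and the microfibril and holds back the processing of the TGF-β precursor, differed more between 6 and 12 h. Emilin1 (chromosome 5, 30913402 to 30921277, plus strand) had 0 counts at 0 h, and then 12.8 CPM (interval 6.16 to 23.6, from 10 counts), 82.3 CPM (75.0 to 90.1) and 84.0 CPM (76.9 to 91.6) in the treated libraries. The ratio was 6.41 (3.45 to 13.5) at 12 h against 6 h. Between 12 and 24 h a difference was not detectable at this depth, with a ratio of 1.02 (0.899 to 1.16). The ratio of Emilin1 to Fbn1 counts within a library was 0.172 (0.0786 to 0.340) at 6 h, 0.437 (0.392 to 0.488) at 12 h and 0.400 (0.361 to 0.443) at 24 h. All 10 counts of Emilin1 at 6 h came from barcodes of 5000 or more counts, in which the ratio was 0.217 (0.0978 to 0.437), 0.429 (0.377 to 0.486) and 0.383 (0.340 to 0.431), with intervals that overlap.

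Of the 3 latent TGF-β binding protein genes, Ltbp1 held the largest share of counts at each time and differed least between 6 and 12 h. Ltbp1 (chromosome 17, 75005568 to 75392512, plus strand) had 0 counts at 0 h, and then 135 CPM (interval 110.3 to 163), 284 CPM (271 to 299) and 209 CPM (197 to 220.3) in the treated libraries. It was highest at 12 h. The ratio was 2.11 (1.73 to 2.60) at 12 h against 6 h and 0.733 (0.681 to 0.789) at 24 h against 12 h. The latter lay between 0.665 and 0.803 over the 10 settings. The 24 h level was 1.55 times (1.27 to 1.91) that at 6 h with all barcodes, but 1.16 times (0.934 to 1.47) in barcodes of 5000 or more counts, where the interval held 1.

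Ltbp2 and Ltbp3 stood low at 6 h and then level. Ltbp2 (chromosome 12, 84783212 to 84876532, minus strand) had 0 counts at 0 h, and then 15.4 CPM (interval 7.96 to 26.9, from 12 counts), 119.6 CPM (110.7 to 129) and 109 CPM (101 to 118) in the treated libraries. The ratio was 7.76 (4.41 to 15.1) at 12 h against 6 h. Without the barcodes whose names end in N it was 11.9. From 12 to 24 h it was 0.914 (0.821 to 1.02), and it reached 1.00 with DESeq2 size factors, so no direction is given.

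Ltbp3 (chromosome 19, 5740904 to 5758532, plus strand) had 2 counts at 0 h, and then 28.2 CPM (interval 17.7 to 42.8, from 22 counts), 182 CPM (171 to 194) and 181 CPM (171 to 192) in the treated libraries. The 6 h library stood apart, and the later levels overlapped almost fully. The ratio was 6.45 (4.24 to 10.3) at 12 h against 6 h and 0.994 (0.912 to 1.08) at 24 h against 12 h, and the latter fell on either side of 1 depending on scaling, between 0.865 and 1.09. No member shares a 51-base stretch of its last 600 bases with another gene. The strand setting is not known, so reads of genes that overlap on opposite strands could not be told apart.

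The make-up of the Ltbp counts moved accordingly, from mostly Ltbp1 to a mixture. Ltbp1 made up 75.5% (exact binomial 95% interval 67.5 to 82.4) of the Ltbp1 to Ltbp3 counts at 6 h, 48.5% (46.8 to 50.2) at 12 h and 41.8% (40.1 to 43.6) at 24 h. Ltbp3 made up 15.8% (10.2 to 23.0), 31.1% (29.5 to 32.7) and 36.3% (34.6 to 38.0). Ltbp2 made up 8.63% (4.54 to 14.6), 20.4% (19.0 to 21.8) and 21.9% (20.5 to 23.4). In barcodes of 5000 or more counts, Ltbp1 made up 76.3%, 48.5% and 41.9%, so the shift was as large there. The ratio of Ltbp3 to Ltbp1 counts went from 0.210 (0.126 to 0.334) at 6 h to 0.640 (0.592 to 0.693) at 12 h and 0.868 (0.800 to 0.941) at 24 h.

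**Figure D3:**
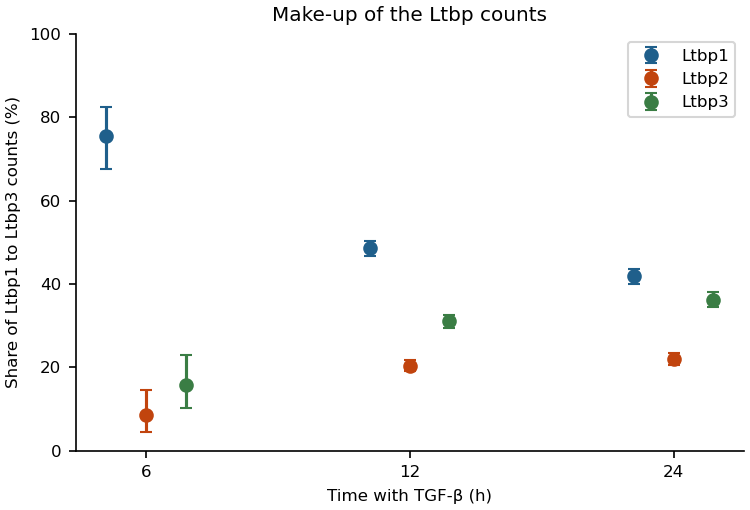
Share of Ltbp1, Ltbp2 and Ltbp3 in their summed counts (139, 3334 and 3076 counts at 6, 12 and 24 h), in percent, with exact binomial 95% intervals for counting error only. The share of Ltbp1 went from 75.5% to 48.5% and 41.8% while that of Ltbp3 went from 15.8% to 31.1% and 36.3%.

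The levels at 6 h depended on the depth of the barcode, which those at 12 and 24 h did much less. At 6 h, 524 of 658 barcodes had under 500 counts and held 21.1% of the counts, while 33 barcodes of 5000 or more held 61.6%. Fn1 stood at 231, 189, 637 and 985 CPM at 6 h in barcodes of under 500 counts, from 500 to below 1000, from 1000 to below 5000, and of 5000 or more. The same classes gave 2493, 2710.3, 3232 and 2768 CPM at 12 h, and 2169, 3097, 3575 and 3343 CPM at 24 h. Fbln2 gave 554, 432, 1397 and 2089 CPM at 6 h, and 2766, 2669, 3045 and 2988 CPM at 12 h. Among genes looked at after these values were seen, Col1a2 gave 402, 135, 822 and 1312 CPM at 6 h and Hspa5, a chaperone of the endoplasmic reticulum, 432, 243, 575 and 1152 CPM. Actb and S100a6 went the other way, from 8256 to 4714 CPM and from 9472 to 6725 CPM between the shallowest and the deepest class. The part of barcode depth in the low 6 h levels was not tested.

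With only barcodes of 5000 or more counts, the ratios at 12 h against 6 h were smaller for all 8 genes. They were 2.81 (2.56 to 3.09) for Fn1, 1.43 (1.34 to 1.53) for Fbln2, 1.96 (1.45 to 2.69) for Fbn1, 1.57 (1.26 to 1.98) for Ltbp1, 3.86 (2.07 to 8.12) for Emilin1, 7.21 (3.63 to 16.8) for Ltbp2 and 4.60 (2.93 to 7.68) for Ltbp3. Each of these intervals lay above 1. For Fbln5 the ratio was 0.814 (0.369 to 2.13). Fn1, Ltbp2 and Ltbp3 were then the 3 members at least 2-fold higher among the 6 at 100 CPM, where 3.86% of 2280 genes were higher and 3.64% lower, against 5 members with all barcodes. For 24 h against 6 h, Ltbp1 gave 1.16 (0.934 to 1.47) and Fbln2 1.12 (1.05 to 1.19) in these barcodes, against 1.55 and 1.46 with all of them. The restriction moved little at 24 h against 12 h, with 1.21 for Fn1, 0.780 for Fbln2 and 0.740 for Ltbp1.

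**Figure D4:**
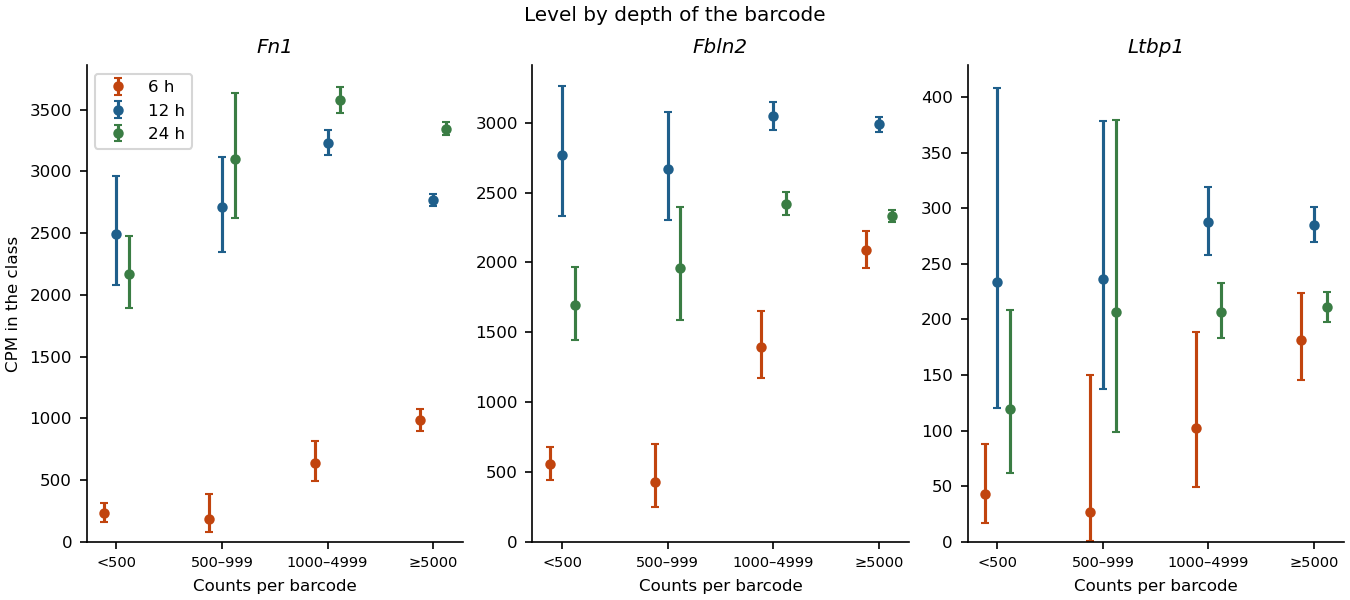
Level of Fn1, Fbln2 and Ltbp1 (CPM within the class) in barcodes grouped by their total counts, at 6, 12 and 24 h, with exact Poisson 95% intervals for counting error only. At 6 h the level is higher in deep barcodes (Fn1 231 CPM under 500 counts and 985 CPM at 5000 or more).

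**Figure D5:**
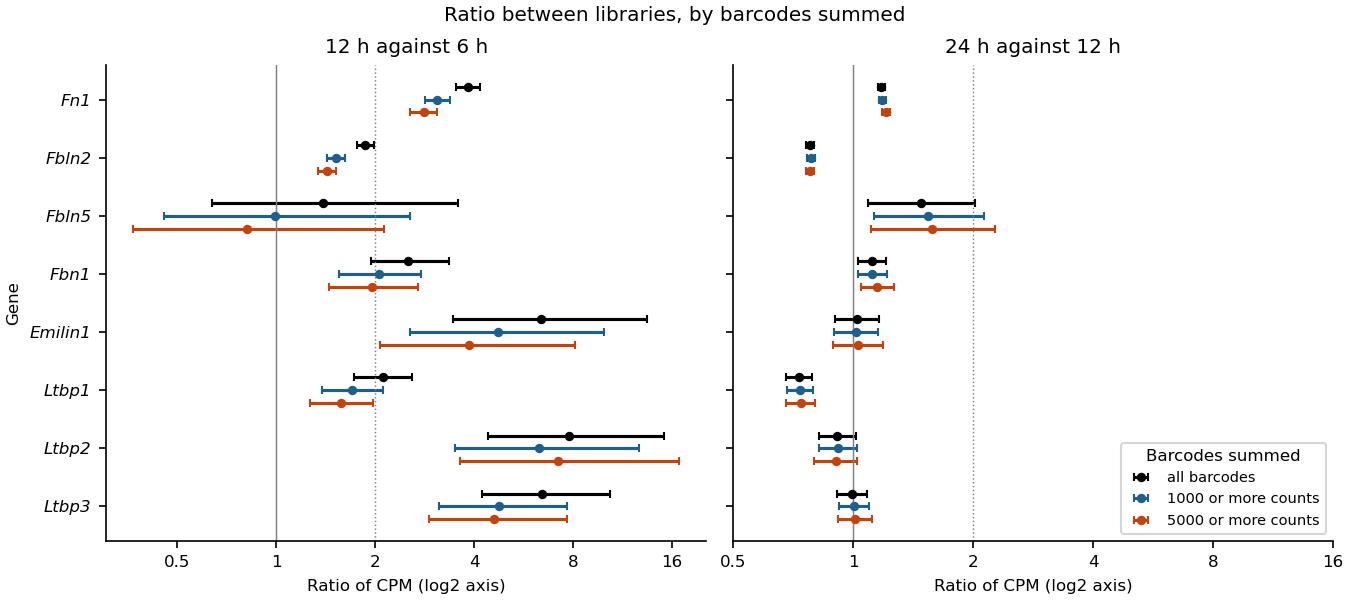
Ratio of CPM between libraries for each gene (log2 axis), at 12 h against 6 h and 24 h against 12 h, from all barcodes (black), those of 1000 or more counts (blue) and those of 5000 or more (red), with exact conditional binomial 95% intervals for counting error only. The solid line marks equal levels and the dotted line a ratio of 2. At 12 h against 6 h only the intervals of Fbln5 reach 1, and at 24 h against 12 h Fbln2 and Ltbp1 lie below 1.

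Few deep barcodes of the later libraries lacked a count of Fn1 and Fbln2. Free RNA in the droplets can also give such counts, and its part was not tested. Of barcodes with 1000 or more counts, 18 of 80 had neither at 6 h, 4 of 865 at 12 h and 1 of 933 at 24 h. The 18 at 6 h had a median of 1430.5 counts, against 5632 for the other 62. In barcodes of 5000 or more counts, Fn1 was found in 32 of 33 at 6 h and in all 450 and 483 later, and Fbln2 in all of them. Between barcodes of 1000 or more counts, thinned to 1000, Spearman's rho over the 28 pairs of members ran from -0.04 to 0.09 at 12 h (865 barcodes) and from -0.06 to 0.10 at 24 h (933 barcodes). These are too weak in sparse counts to be a finding. At 6 h, over 80 barcodes, the 3 pairs computed gave 0.41 for Fn1 and Fbln2, 0.27 for Fbln2 and Ltbp1 and 0.03 for Fn1 and Ltbp1, and these barcodes share the depth differences described above.

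At 24 h, thinned to 1000 counts, Fn1 stood at 3.10 (2.87 to 3.35) counts in the 210 barcodes with an Acta2 count, the gene of smooth muscle actin, and 3.67 (3.54 to 3.82) in the 723 without. Fbln2 stood at 2.39 in both. Ltbp1 stood at 0.290 (0.222 to 0.373) with Acta2 and 0.214 (0.182 to 0.251) without, and Fbn1 at 0.214 (0.156 to 0.287) and 0.201 (0.169 to 0.236). Without thinning, 454 barcodes had an Acta2 count, with a median of 6796.5 counts, and 479 did not, with a median of 3953. Fn1 then stood at 3115 CPM (3058 to 3173) with Acta2 and 3815 CPM (3737 to 3893) without. Fbn1 went the other way, at 245 CPM (229 to 261) with Acta2 and 159.6 CPM (144 to 176) without, as did Ltbp1, at 225 and 187 CPM. The part of depth in these differences was not tested. At 12 h, Fn1 stood at 2.33 (2.05 to 2.63) counts in 113 barcodes with a cell cycle gene and 3.06 (2.94 to 3.19) in 752 without. The intervals overlapped at 24 h, at 2.93 (2.33 to 3.64) in 28 barcodes with and 3.56 (3.44 to 3.69) in 905 without. At 6 h the order was the other way, also with overlap, at 0.731 (0.440 to 1.14) in 26 and 0.611 (0.421 to 0.858) in 54. The barcodes of each time come from 1 library and are not replicates.

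Among fibronectin receptors and adhesion genes, 12 of 14 had a mean of 20 CPM or more, and 6 of these were at least 1.5-fold higher and none lower at 12 h against 6 h, where 16.9% of 6355 genes were higher and 7.27% lower. Their median log2 ratio was 0.59, against 0.15 over all genes. From 12 to 24 h, 1 was higher and 3 lower, where 2.38% of 6469 genes were higher and 3.4% lower. The median was -0.15, against -0.11 over all genes. Itga5, the α subunit of the main fibronectin receptor, stood at 24.4, 65.6 and 26.6 CPM at 6, 12 and 24 h. Itgb3, the β subunit of an integrin that binds fibronectin and vitronectin, stood at 51.4, 110 and 43.5 CPM. Both were highest at 12 h, with ratios of 0.406 (0.335 to 0.489) and 0.396 (0.342 to 0.458) at 24 h against 12 h, while Fn1 was at 1.18. Itgb5 stood at 96.3, 381 and 371 CPM, and Sdc2, a heparan sulphate proteoglycan of the cell surface, at 79.6, 117 and 206 CPM.

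Of the other elastic fibre and microfibril genes, 15 of 16 were in the table and 5 reached a mean of 20 CPM, with 3 higher and 1 lower at 12 h against 6 h. The median was 0.62. Over all genes at that mean, 16.9% were 1.5-fold higher and 7.27% lower, with a median of 0.15. Over 12 and 24 h, 4 of the list reached that mean and none was 1.5-fold apart, where 2.38% of all genes were higher and 3.4% lower. Loxl1, a lysyl oxidase that crosslinks elastin, stood at 30.8, 109 and 132 CPM, and Lox at 218, 341 and 407 CPM. Efemp2, the gene of fibulin-4, stood at 69.3, 119 and 108 CPM. Mfap5, a microfibril-associated glycoprotein, was lower, at 33.4, 14.4 and 10.5 CPM, and its ratio at 12 h against 6 h was 0.432 (0.275 to 0.700).

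Of the latent TGF-β ligands, carriers and activators, 9 of 15 reached a mean of 20 CPM. At 12 h against 6 h, 6 were higher and none lower, with a median of 0.88. Over all genes, 16.9% were higher and 7.27% lower, with a median of 0.15. At 24 h against 12 h none was 1.5-fold apart, where 2.38% of all genes were higher and 3.4% lower. Lrrc32, the gene of the membrane carrier GARP, stood at 24.4, 88.1 and 96.2 CPM. Thbs1, thrombospondin-1, which can activate latent TGF-β, stood at 275, 782 and 892 CPM. Bmp1, a protease that cleaves LTBP-1 and procollagens, stood at 38.5, 208 and 200.4 CPM, and Mmp14, a membrane protease, at 229, 478 and 379 CPM. Of the ligands, Tgfb3 stood at 25.7, 32.7 and 22.7 CPM, and its ratio at 24 h against 12 h was 0.694 (0.554 to 0.869).

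Of the other matrix partners of fibronectin, 12 of 14 were in the table and 10 reached a mean of 20 CPM, with 8 higher and 1 lower at 12 h against 6 h and a median of 1.20. Over all genes, 16.9% were higher and 7.27% lower at 12 h against 6 h, with a median of 0.15. From 12 to 24 h, 2 of the list were higher and none lower, where 2.38% of all genes were higher and 3.4% lower. Col3a1, a fibrillar collagen chain, stood at 27.0, 173 and 428 CPM, and its ratio at 24 h against 12 h was 2.48 (2.30 to 2.67), where that of Fn1 was 1.18. Igfbp3, an insulin-like growth factor binding protein, stood at 97.6, 189 and 293 CPM. Tnc, tenascin-C, was lower, at 44.9, 25.8 and 18.8 CPM. The lists were read in the same libraries as the members, and nothing particular to a list follows from these counts.

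At 24 h against 6 h, 1.5-fold higher genes were 13.5% and lower ones 8.95% of 6238 genes at a mean of 20 CPM. Of the receptors and adhesion genes 3 of 12 were higher and none lower, of the elastic fibre genes 2 of 5 and 1, of the ligands, carriers and activators 6 of 9 and none, and of the matrix partners 8 of 10 and 1.

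The 3 genes nearest to each member were found among 2160 others at 100 CPM or more in any treated library, by the Euclidean distance between centred log2 (CPM + 10) profiles over the 3 treated libraries. For Fn1 they were Fstl1, Vcam1 and Meg3, of which Fstl1, a secreted follistatin-like glycoprotein, stood at 369, 1309 and 1797 CPM. For Fbln2 they were Creg1, Aplp2 and Bcap31, and for Ltbp1 Ift46, Ctsb and Creb3l2, all with a peak at 12 h. Vcam1, at 50.1, 262 and 286 CPM, and Bmp1 were also near Ltbp2 and Ltbp3. The third near gene was Gadd45a for Ltbp2 and Ccl7 for Ltbp3. Fzd2, Bgn and Pcolce were nearest to Fbn1, Bmp1, Meg3 and Itgb5 to Emilin1, and Acly, Crim1 and Txndc15 to Fbln5. With 3 libraries, a profile has few ways to differ, and many genes lie close by.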

How the data were processed

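The values the authors deposited are raw counts, judged from the whole numbers in the table of genes by barcodes. STAR 2.5.3a and mm10 are named in the submitters' processing notes. Not given in the sources used here are the counter, the annotation, the strand setting, the barcode filter and whether UMIs were collapsed. Column names give each barcode's library. All 3298 barcodes were kept and no doublet caller was run. The barcodes of a library were summed and divided by its total to give CPM. For log2 ratios 10 was added to each CPM, which understates the differences of low genes. CPM intervals are exact Poisson, shares exact binomial and ratios exact conditional binomial, all at 95%. No test was made, for want of replicates. A count of 0 was read as at most 3 counts.

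The members and lists were chosen with earlier results of these data known. All 8 members are named, up to 4 genes per list with the largest log2 ratio in a comparison, and the 3 nearest profiles per member. Count ratios within libraries, barcodes of 5000 or more counts, barcodes whose names end in N, and genes set beside the depth classes were added after the data were seen. The calls and intervals were tried on simulated Poisson counts, the assumption on which the intervals rest. These counts hold no spread between barcodes or libraries, so they cannot show how the calls fare against such spread.

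Alternatives were TMM (edgeR 4.0.16) and DESeq2 1.42.0 size factors, a total that leaves out mitochondrial and ribosomal protein genes, barcode subsets and weights, other pseudocounts, floors, a 1.5-fold limit and thinning depths. Positions and overlaps are from GENCODE M21 on GRCm38, and promoter windows from RefSeq. Planned protein features were not analysed here. Some items that touch these results are not reported here. Software was Python 3.11.15, numpy 2.4.6, scipy 1.17.1, pandas 2.3.3, matplotlib 3.10.9 and R 4.3.3.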

Additional observations from a re-analysis of the deposited data

How the results depend on the processing

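At 12 h against 6 h, 5 members were at least 2-fold higher. There were 3 with barcodes of 1000 or more counts (3.70% of all genes at the floor were higher), of 500 or more genes (3.72%) or of 5000 or more counts (3.86%), and with a pseudocount of 50 (2.08%), in each case Fn1, Ltbp2 and Ltbp3. With a floor of 200 CPM there were 2, Fn1 and Ltbp1, of the 3 members at it (4.84%). At 24 h against 6 h the number was 4, and 2 of 4, Fn1 and Fbn1, with a floor of 200 CPM (5.20%). The median log2 ratio over the 8 members was 1.58 at 12 h against 6 h, 2.61 with equal weight per barcode and 1.00 with a pseudocount of 50. At 24 h against 6 h it was 1.71, 2.54 and 1.08 in the same order. For 24 h against 12 h it was 0.01, and -0.14 with equal weight per barcode. In comparisons with 6 h, equal weight gives the 524 shallow barcodes of that library most of the say. A higher floor admits fewer genes, and a larger pseudocount shrinks ratios by construction. For the barcode subsets, and for equal weight at 24 h against 12 h, the cause was not tested. The other 115 recomputed counts and medians stayed within 1.5 times or within the counting interval. Of the ratios and shares of single genes, taken with the numbers of all genes called higher or lower, 120 moved and 226 did not. Ratios and shares were judged by the counting interval of the reported value, and the numbers by 1.5 times. No member ratio called 2-fold turned over.

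No paired analysis was possible because each time point had 1 library, and no replicate could be left out. Barcodes whose names end in N and that lie 1 dropped base from another numbered 12, 160 and 159 at 6, 12 and 24 h and held 8.30%, 9.09% and 8.21% of the counts, so some cells may be counted under more than 1 barcode. With all barcodes ending in N left out, the same 5 members were higher at 12 h against 6 h (5.11% of all genes), none at 24 h against 12 h (1.45%) and the same 4 at 24 h against 6 h (5.13%). The 6 h library sets the precision, with 7 counts of Fbln5, 10 of Emilin1, 12 of Ltbp2 and 22 of Ltbp3.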

Other observations

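Several relatives of the 8 genes were barely counted in these cultures, and are named here after their values were seen. Ltbp4, the remaining latent TGF-β binding protein gene, had 6, 73 and 127 counts at 6, 12 and 24 h, or 7.70, 12.8 and 20.6 CPM, and its ratio at 24 h against 12 h was 1.60 (1.19 to 2.17). Eln, the gene of elastin itself, had 0, 23 and 50 counts, with a ratio of 2.01 (1.20 to 3.44) at 24 h against 12 h. Fbn2, the other fibrillin gene in the table, had 4, 1 and 1 counts, and its ratio at 12 h against 6 h was 0.0342 (0.000695 to 0.346). Fbln1 had 2, 18 and 8 counts, with a ratio of 0.410 (0.154 to 0.991) at 24 h against 12 h. Efemp1, the gene of fibulin-3, had 2, 88 and 61 counts, with ratios of 6.02 (1.62 to 50.5) at 12 h against 6 h and 0.639 (0.454 to 0.896) at 24 h against 12 h. Tgfb1 had 8, 59 and 46 counts and Tgfb2 0, 35 and 46. Postn and Dcn, both common in fibroblast matrix, had at most 5 counts in any treated library. All of these ratios rest on few counts.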
